A study of Mus musculus with 3 samples.

Results

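Tenocytes that express *Igfbp3*, *Scn7a*, *Hmcn1* or *Smoc2* were examined in single-cell RNA sequencing of the mouse flexor digitorum longus (FDL) tendon, the tendon that bends the toes. A barcode was kept when it had between 1000 and 5000 genes and at most 10% mitochondrial counts. It was taken as a tenocyte when it held at least 10 UMIs (unique molecular identifiers, 1 per captured transcript) of *Tnmd*, *Fmod*, *Kera* and *Cilp2*, more than it held of the epitenon genes *Efemp1*, *Pi16*, *Scara5*, *Cd248*, *Krtdap* and *Ccn3*. At most 2 UMIs of *Tyrobp* and *Fcer1g*, and none of *Pecam1* or *Cdh5*, were allowed. Members were chosen by measured counts, as tenocytes with at least 3 UMIs summed over *Igfbp3*, *Scn7a*, *Hmcn1* and *Smoc2* and at most 4 UMIs summed over *Slpi*, *Cxcl3*, *Csf2* and *Il4i1*, genes of an inflammatory tenocyte state. The rule selected 415 cells, which were 4.84% of 8571 tenocytes and 2.11% of 19709 kept cells, from 43908 barcodes in all.

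There was 1 library per group, each from 16 pooled FDL tendons, so no difference between groups has a replicate check and no test was made. The mice were C57BL/6J. The 6 M DTR mice carried Scx-Cre and a Cre-dependent diphtheria toxin receptor allele (Scx-Cre+; DTR F/+) and received 5 daily injections of diphtheria toxin (DT), which kills cells that have the receptor. The tenocytes of this library are therefore those present in a tendon after depletion of cells in which the *Scx* promoter drove Cre. The 6 M WT mice (Scx-Cre-; DTR F/+) carried the receptor allele without Cre and received the same 5 injections, and the 21 M B6 mice (C57/Bl6) were untreated. GEO's labels give an age of 3 M for both younger groups and 21 M for the aged one, whereas the names used here follow the age at harvest in the study's methods. The 6 M WT tendons were digested with collagenase for 120 minutes and the others for 90 minutes, so the effects of digestion time and of the group cannot be told apart. The libraries held 148149903 UMIs (6 M WT), 123918145 UMIs (6 M DTR) and 92707026 UMIs (21 M B6). Values given without a library name follow this order (6 M WT first, then 6 M DTR, then 21 M B6), and intervals are exact 95% intervals that cover counting error only.

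Tenocytes are the fibroblasts that lie between the collagen fibres of a tendon and make its matrix, and *Tnmd*, *Fmod* and *Kera* are among their characteristic transcripts. The epitenon is the thin sheath around the tendon, whose fibroblasts make lubricants and a looser matrix. Of the genes that chose the members, *Igfbp3* encodes a secreted protein that binds insulin-like growth factors, *Scn7a* a sodium channel family member that responds to extracellular sodium, *Hmcn1* hemicentin 1, a large matrix protein, and *Smoc2* a secreted calcium-binding matricellular protein of the SPARC family.

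The share of members among tenocytes was highest in 6 M DTR, lowest in 6 M WT and intermediate in 21 M B6. There were 83 members among 5055 tenocytes in 6 M WT, which is 1.64% (1.31 to 2.03). In 6 M DTR there were 271 among 2579, or 10.5% (9.35 to 11.8), and in 21 M B6 there were 61 among 937, or 6.51% (5.02 to 8.28). The 3 intervals do not overlap, but they cover only the counting of cells within 1 pooled library per group. Among all kept cells the shares were 0.993%, 4.13% and 1.27%, and tenocytes themselves were 60.5%, 39.4% and 19.5% of kept cells. Members were thus more frequent in 6 M DTR than in 6 M WT whichever denominator was used, while over kept cells the intervals of 6 M WT (0.792 to 1.23) and 21 M B6 (0.974 to 1.63) overlapped. Other tenocytes differed in the same order, with at least 1 marker UMI in 4.38%, 15.3% and 8.45%. Relative to 6 M WT, other tenocytes of 6 M DTR and 21 M B6 had ratios of 8.56 and 3.09 for *Smoc2*. For *Hmcn1* the ratios were 5.23 and 1.96, for *Scn7a* 3.52 and 4.68 and for *Igfbp3* 1.36 and 1.7. How much of the shares goes with marker levels across all tenocytes was not tested.

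The rule counts raw UMIs, and members were sequenced more deeply than other tenocytes. Their median was 15366, 13633 and 15042 UMIs per cell against 13024.5, 12569 and 11286 in other tenocytes. When the same member rule was applied to tenocytes thinned to 5000 UMIs each, the shares were 0.709%, 3.96% and 2.23%, in the same order. The share in 6 M DTR was above that in 6 M WT in each of the settings drawn in the plot of member shares. Among cells called female it was 1.52%, 7.55% and 7.41%, and among cells called male 2.23%, 13.6% and 4.57%. The shares of 6 M DTR and 21 M B6 were close among female cells. Females made up 56.6%, 23.2% and 42.6% of members and 61.2%, 33.4% and 37.1% of other tenocytes.

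**Figure D1:**
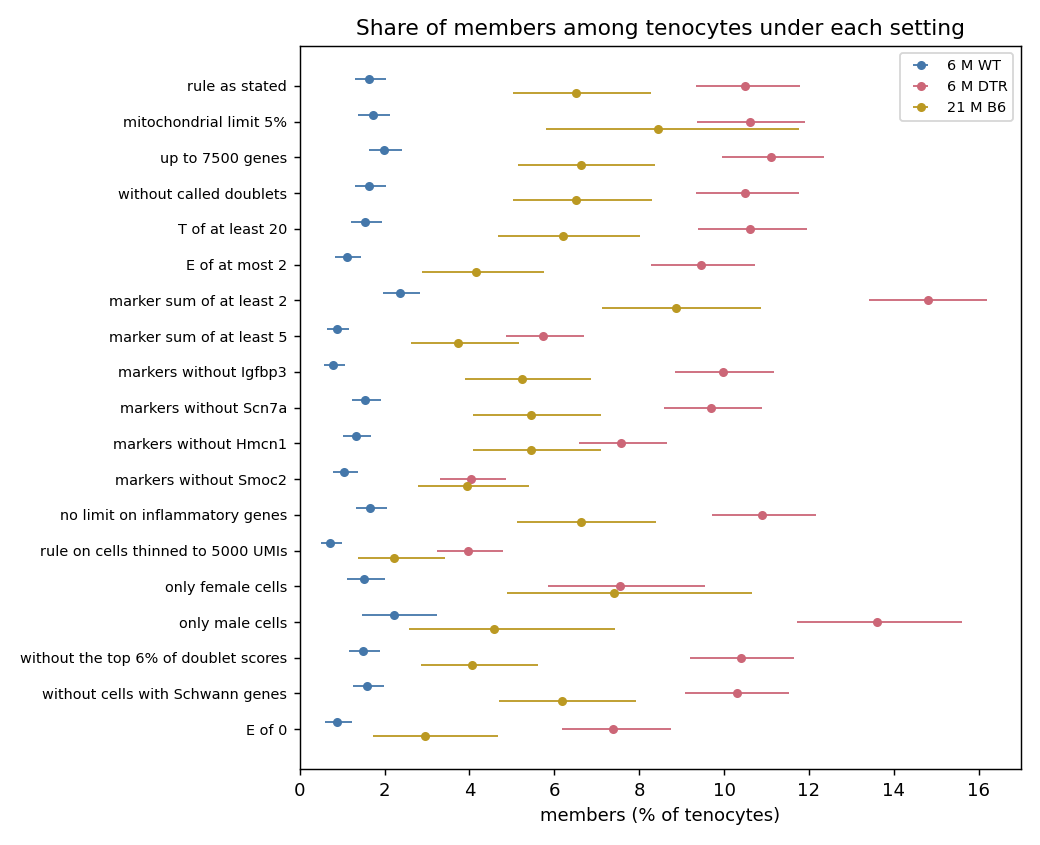
Share of members among tenocytes (x axis, percent) in each library under the rule as stated and under each alternative (y axis). Points are shares and bars exact 95% binomial intervals. The 6 M DTR share is above the 6 M WT share in every setting shown, and it lies next to that of 21 M B6 without *Smoc2* (4.03% and 3.95%).

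The marker sum had no gap at its threshold. It was 0 in 4754, 1955 and 802 tenocytes, 1 in 180, 232 and 51, 2 in 37, 111 and 22, and 3 in 25, 67 and 15. The median member held 5 UMIs of the 4 markers in each library, with maxima of 62, 34 and 24. Just inside the threshold, at a sum of 3, *Fmod* (fibromodulin, which binds collagen fibrils) was at 4039, 4558 and 3711 CPM (the usual scaling of counts by the total UMIs, here those summed over the cells of a class). Just outside it, at a sum of 2, *Fmod* was at 4911, 4505 and 5664 CPM. A marker sum of 3 or more with inflammatory genes above the limit occurred in 1, 10 and 1 tenocytes, which were not members.

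The name *Igfbp3* *Scn7a* tenocytes describes the members of the libraries unequally. At 5000 UMIs per cell, *Igfbp3* was detected in 48.1%, 7.06% and 28.3% of members, and *Scn7a* in 8.64%, 11.9% and 26.7%. *Hmcn1* was detected in 14.8%, 36.1% and 21.7%, and *Smoc2* in 32.1%, 64.7% and 41.7%. Without thinning the shares were 56.6%, 10.3% and 36.1% for *Igfbp3*, 15.7%, 19.9% and 34.4% for *Scn7a*, 32.5%, 53.5% and 41% for *Hmcn1*, and 47%, 80.1% and 62.3% for *Smoc2*. The members of 6 M DTR were thus mostly *Smoc2* and *Hmcn1* tenocytes.

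The marker with the most UMIs in a member also differed. *Igfbp3* led in 39 of 83 members of 6 M WT (47%), in 13 of 271 members of 6 M DTR (4.8%) and in 14 of 61 members of 21 M B6. *Smoc2* led in 23, 160 and 24 members, *Hmcn1* in 13, 60 and 7, and *Scn7a* in 4, 19 and 10, with ties in the rest. *Igfbp3* gave 63.3%, 6.89% and 30% of the marker UMIs of the members and *Smoc2* gave 23.9%, 61.2% and 42%. Only 1 of the 4 markers was detected in 57.8%, 46.9% and 42.6% of members and all 4 in 1, 2 and 1 members. Cells with a single marker were thus a majority in 6 M WT, and cells with several markers in the other libraries.

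**Figure D2:**
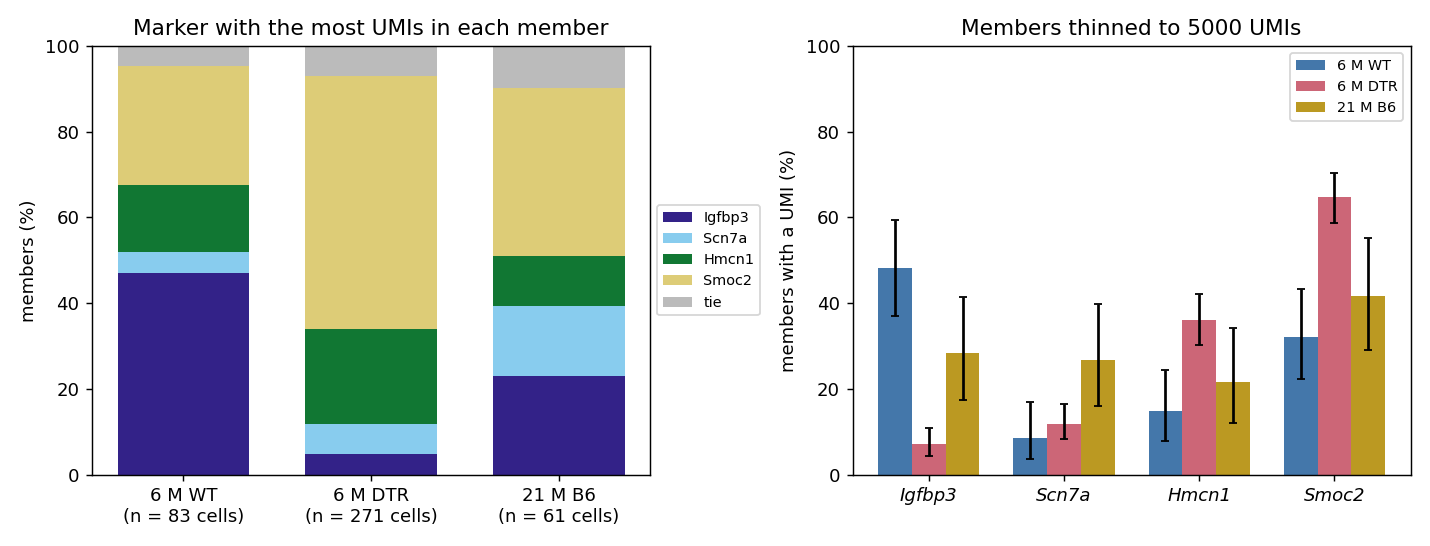
Left, the marker with the most UMIs in each member, as percent of the members of a library. Right, percent of members with at least 1 UMI of each marker after thinning every cell to 5000 UMIs, with exact 95% binomial intervals. *Igfbp3* leads in 6 M WT (48.1% of members with a UMI) and *Smoc2* in 6 M DTR (64.7%).

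Since the markers chose the cells, these levels are a description. The markers were rare in other tenocytes but not in all other cell types. At the same thinned depth, *Igfbp3* was detected in 0.536%, 0.627% and 0.719% of other tenocytes and in 0.407%, 0.198% and 0.897% of macrophages, which should lack it and show the level of free RNA (median depth 16370, 13234 and 13849 UMIs). *Smoc2* was detected in 0.515%, 3.85% and 1.8% of other tenocytes against 1.02%, 0.0991% and 0.673% of macrophages. The *Smoc2* share of other tenocytes in 6 M DTR therefore lay above that of macrophages, and in 6 M WT it did not. *Igfbp3* was also detected in endothelial cells (31.8%, 32.2% and 38.4%), *Scn7a* in Schwann cells (23.9%, 28% and 22.1%) and *Hmcn1* in epitenon cells (28.4%, 42.9% and 21.5%).

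The markers were read again in UMIs that had not chosen the cells. The UMIs of each tenocyte were divided at random into 2 sets, cells with at least 2 marker UMIs in the first set were chosen (77, 231 and 53 cells), and levels were read in the second. At least 1 marker UMI was found there in 83.1%, 82.3% and 83% of chosen cells, against 2.37%, 11.8% and 6.22% of the other tenocytes. The 2 sets come from the same cells, so any cell rich in a marker, a doublet included, would show it in each. The division therefore cannot tell what kind of cells the members are. *Smoc2* in the second set was 81.6-fold (55.3 to 122), 13.7-fold (11.7 to 15.9) and 32.6-fold (20.5 to 53.5) higher in chosen cells. *Tac1*, which the rule did not use, was 28.4-fold, 3.63-fold and 6.96-fold higher in them.

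Members lay near each other more than their share of tenocytes, but most of their neighbours were other tenocytes. Neighbours were found within each library from genes outside the rule, in cells thinned to 5000 UMIs. Of the 20 nearest tenocytes of a member, 12.8%, 35.4% and 20.4% were members, where members were 1.64%, 10.7% and 6.7% of the tenocytes used. No member was found among the 20 neighbours of 21, 11 and 12 members. Members equalled or outnumbered other tenocytes among the 20 neighbours of 0 of 81, 77 of 269 and 5 of 60 members. Markers were also detected together in some tenocytes. In 6 M DTR, *Smoc2* was detected in 46.9% of the 49 tenocytes with *Scn7a* and in 9.7% of those without it, and in 30.4% of the 168 with *Hmcn1* and 8.99% of those without it. In 6 M WT, *Smoc2* was detected in 9.52% of the 63 tenocytes with *Igfbp3* and in 0.883% of the rest. *Igfbp3* and *Scn7a* were detected together in 1, 4 and 1 tenocytes, and *Hmcn1* and *Scn7a* in 0, 14 and 3. In 21 M B6, each of the 6 pairs was detected in 1 or 3 cells.

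The tenocyte genes of the rule were required of members and other tenocytes alike, and their levels are a description. *Fmod* was at 5563, 5049 and 3527 CPM in members and at 6360, 6303 and 6886 CPM in other tenocytes. *Tnmd*, a transmembrane protein of mature tenocytes, was at 552, 725 and 409 CPM in members and at 561, 614 and 482 CPM in other tenocytes. *Kera* (keratocan) was at 67.1, 8.71 and 36.9 CPM against 25.8, 40.2 and 39 CPM, and *Cilp2* at 528, 809 and 223 CPM against 1163, 1037 and 428 CPM. *Fmod* and *Cilp2* were thus lower in members of each library, and *Kera* was higher in 6 M WT and lower in 6 M DTR. Of 15 tenocyte genes that the rule did not use, 14 were measured in all libraries, and 3 of these were at least 1.5-fold lower in members of all 3 and none higher, where 0.941% and 2.4% of all genes tested were. The 3 were *Coch*, *Angptl7* and *Mkx*, the last a transcription factor of tendon development. Summed over the list, the level was 30020, 39339 and 20258 CPM in members, 46114, 42943 and 30664 CPM in other tenocytes, and 6084, 5283 and 4757 CPM in epitenon cells. On this list members lay between other tenocytes and epitenon cells in each library, closer to other tenocytes.

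Outside the rule, 4675 genes had at least 20 CPM in members or other tenocytes of every library, and 112 of them (2.4%) were at least 1.5-fold higher in members in all 3 libraries. Another 44 (0.941%) were at least 1.5-fold lower in all 3. Over the 5655, 5577 and 5136 genes that reached 20 CPM in each library on its own, the log2 ratio had a median of 0.06, 0.05 and 0.07. With TMM factors, which centre the bulk of genes, 89 genes were higher and 62 lower, of which 87 and 44 were among those above. These genes come from the contrast that defined the members, and nothing beyond their levels is read from the counts. The difference between members and other tenocytes was larger in number in 6 M WT (613 genes higher and 242 lower) and 21 M B6 (603 and 294) than in 6 M DTR (308 and 151), but the members of 6 M WT and of 21 M B6 held 1341448 and 1004019 UMIs and those of 6 M DTR 3901648, and the part of this depth in the counts was not tested. In 78 of the 112 genes the call remained when the member with the most UMIs of that gene was left out of each library.

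*Tnfaip6*, a hyaluronan-binding protein induced in inflammation, was at 1000, 312 and 1465 CPM in members against 78.7, 68.4 and 203 CPM in other tenocytes, ratios of 12.7 (11.9 to 13.5), 4.56 (4.25 to 4.9) and 7.22 (6.76 to 7.72). A single member held 27.7%, 15.8% and 36.2% of the *Tnfaip6* UMIs, and without it the level was 735, 264 and 957 CPM. *Tnfaip6* was at 387, 258 and 3595 CPM in members at a marker sum of 3 and at 147, 212 and 319 CPM in tenocytes at a sum of 2. In 21 M B6 these were 15 and 22 cells. In the second UMI set of the random division, *Tnfaip6* was 10.5-fold, 4.75-fold and 4.06-fold higher in the chosen cells. *Tac1*, the precursor of the neuropeptide substance P, was at 382, 190 and 494 CPM against 12.6, 53.4 and 99.8 CPM, ratios of 30.2 (27 to 33.7), 3.56 (3.26 to 3.88) and 4.95 (4.44 to 5.51). *Ptgs2*, which makes prostaglandin H2, was at 213, 97.1 and 163 CPM, 8.07-fold, 3.52-fold and 4.67-fold higher in members. Epitenon cells were above members of each library, at 1349, 1027 and 2168 CPM of *Tnfaip6* and 551, 295 and 671 CPM of *Ptgs2*. For *Ptx3*, a soluble pattern recognition protein, the ratios were 15.2, 3.51 and 11.5, but 1 member held 30.6%, 33.3% and 60.5% of the UMIs, and without it the level in members was 313, 84.9 and 194 CPM, above 29, 36.1 and 41.2 CPM in other tenocytes. Among male cells of 6 M WT, however, the ratio for *Ptx3* turned to 0.201.

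*Tac1* was found in a minority of members. At 5000 UMIs per cell, *Tac1* was detected in 22.2%, 21.2% and 31.7% of members, in 1.17%, 6.04% and 6.23% of other tenocytes and in 0.611%, 0.297% and 1.57% of macrophages. *Tac1* was at 40.4, 23.3 and 102 CPM in epitenon cells, less than in members of each library. *Cygb* (cytoglobin, an oxygen-binding globin of fibroblasts) was detected in more members, 50.6%, 44.2% and 63.3%, against 9.11%, 16.8% and 21.9% of other tenocytes and 1.63%, 2.08% and 4.26% of macrophages. Its level was 243, 166 and 301 CPM against 26.5, 48.6 and 79.9 CPM.

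Genes of matrix and its turnover were among those highest in members. *Mgp*, matrix Gla protein, an inhibitor of calcification, was at 3193, 4799 and 3533 CPM against 602, 1752 and 1269 CPM, ratios of 5.3, 2.74 and 2.78. *Mmp2*, a gelatinase, was at 565, 1348 and 579 CPM against 92.5, 559 and 276 CPM. *Tnc* (tenascin-C) was 8.1-fold, 2.62-fold and 2.18-fold higher, *Fbln7* (fibulin 7) 14.9-fold, 2.12-fold and 3.97-fold, and *Itih5*, a hyaluronan-associated protein, 8.37-fold, 2.61-fold and 4.38-fold. At equal depth *Mgp* was detected more often in members than in other tenocytes or epitenon cells, and *Mmp2* likewise, although its shares in members and epitenon cells were closer in the libraries other than 6 M DTR. *Mgp* was detected in 85.2%, 92.6% and 85% of members, in 46.3%, 70.8% and 51.9% of other tenocytes, in 31.9%, 25.2% and 33.9% of epitenon cells and in 6.52%, 6.94% and 6.5% of macrophages. *Mmp2* was detected in 66.7%, 91.4% and 73.3% of members, in 23.8%, 64.2% and 51.1% of other tenocytes, in 57.5%, 56.1% and 64.2% of epitenon cells and in 2.44%, 4.66% and 2.91% of macrophages.

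Other named genes that were higher in members of all 3 libraries encode secreted factors, a complement protease and a transporter. *Enpp2*, which makes lysophosphatidic acid, was 4-fold, 3.25-fold and 4.83-fold higher. *C1s1*, a complement protease, was 9.81-fold, 3.22-fold and 4.44-fold higher. *Fgl2* (5.22, 2.77 and 4.08), the chemokine *Cxcl14* (2.83, 2.36 and 3.59) and the phosphate transporter *Slc20a1* (2.25, 2.51 and 2.78) had ratios above 2 in each library.

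Among genes with at least 50 CPM in members of every library, *Coch*, which encodes the matrix protein cochlin, was one of the lowest relative to other tenocytes. It was at 3902, 442 and 1796 CPM in members and at 12362, 3262 and 5684 CPM in other tenocytes, ratios of 0.316 (0.307 to 0.324), 0.136 (0.129 to 0.142) and 0.316 (0.301 to 0.331). In 6 M DTR, 1 member held 37.4% of its *Coch* UMIs. *Clu* (clusterin, a secreted chaperone) was at 1601, 3286 and 1010 CPM against 5013, 5373 and 2880 CPM. *Clec3b* (tetranectin) had ratios of 0.451, 0.221 and 0.536, and *Retreg1*, a receptor for turnover of the endoplasmic reticulum, 0.365, 0.297 and 0.338. *Lox*, which crosslinks collagen and elastin, was at 1119, 925 and 869 CPM against 1814, 1641 and 1644 CPM. *Angptl7*, *Ccdc80*, *Fbln1*, *Csf1* (a growth factor of macrophages) and *Tlr2* (a receptor for bacterial lipoproteins) had ratios between 0.368 and 0.623.

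**Figure D3:**
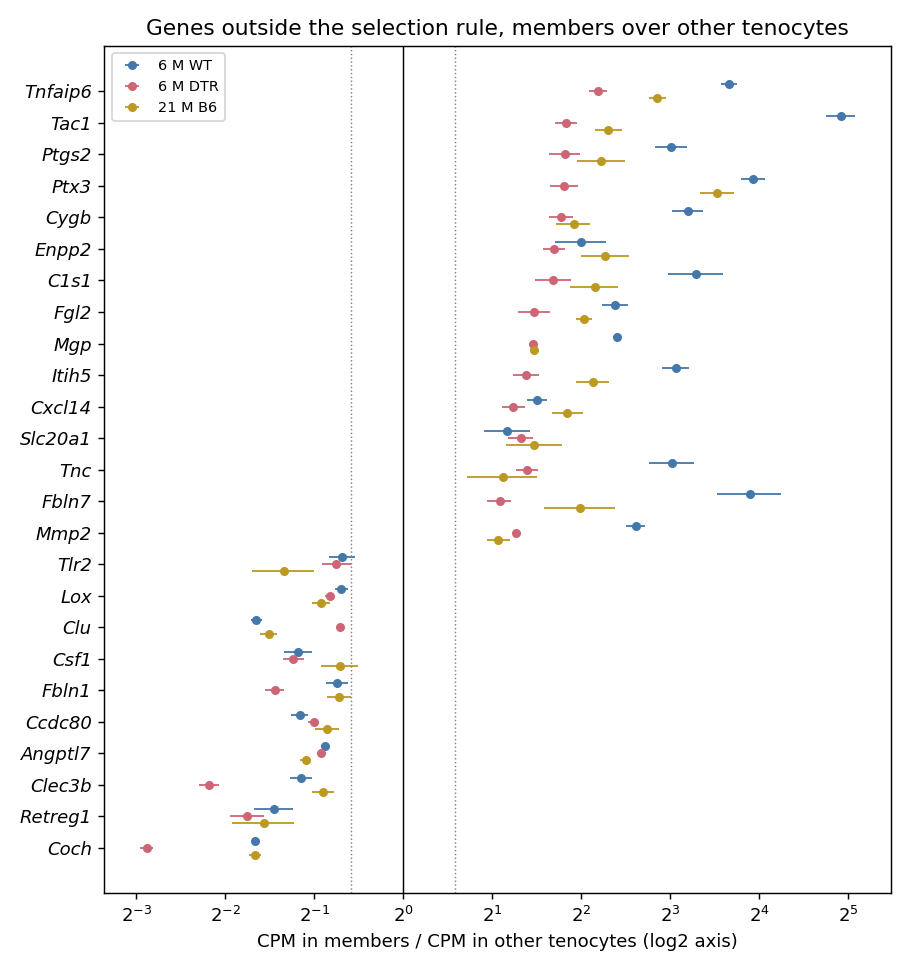
Ratio of CPM in members to CPM in other tenocytes (x axis, log2 scale) for the 15 genes highest and the 10 lowest in members over all 3 libraries, among genes outside the rule with at least 50 CPM in members of each (haemoglobin and sex-linked genes left out). Points are libraries, bars exact 95% intervals for counting error only, and dotted lines the 1.5-fold limits. The 6 M DTR points lie nearest to a ratio of 1 for most of the genes that are higher, such as *Tac1* (3.56), and farthest from it for *Coch* (0.136).

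Basement membrane genes were often higher in members. Of 8 measured in all libraries, 4 were at least 1.5-fold higher in members of all 3 (2.4% of all genes tested) and none lower, and the list's median log2 ratio was 1.22, 0.50 and 1.06, beside 0.06, 0.05 and 0.07 for all genes. The 4 were the laminin chains *Lama2* and *Lama4*, nidogen 1 (*Nid1*) and the collagen IV chain *Col4a2*. *Nid1*, which links laminin to collagen IV, was at 62.6, 42 and 113 CPM in members and at 8.23, 15 and 18.8 CPM in other tenocytes. In the median cell the list summed to 814, 900 and 862 CPM in members, 478, 694 and 557 CPM in other tenocytes, and 1403, 1263 and 1226 CPM in epitenon cells.

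The counts of the lists that follow stand beside 2.4% of all genes higher and 0.941% lower in all 3 libraries. In the SPARC, SMOC and hemicentin family, *Hmcn2* and *Sparcl1* were higher in all 3, out of 4 measured. *Hmcn2*, the paralog of *Hmcn1*, was at 55.9, 26.7 and 164 CPM against 4.11, 4.27 and 15.9 CPM. None of 9 genes of the insulin-like growth factor axis and none of 4 genes of sodium and potassium handling passed 1.5-fold in all 3 libraries in either direction. Among fibulins and elastic fibre genes, 4 of 14 were higher (*Fbln7*, *Mfap2*, *Mfap5* and *Loxl1*) and 2 lower (*Fbln1* and *Lox*), where 2.4% and 0.941% of all genes were.

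Among collagens that do not form the main fibrils, 3 of 11 were higher (*Col4a2*, *Col8a1* and *Col14a1*), and among fibrillar collagens 2 of 7 (*Col5a1* and *Col5a3*, which act with collagen I in fibril assembly). *Col14a1* was at 51.4, 29.5 and 118 CPM in members against 3.58, 5.81 and 30.5 CPM. In the matrix protease list 3 of 11 were higher (*Mmp2*, *Mmp14* and *Adamts1*). None of 8 small leucine-rich proteoglycans passed the limit in all 3 in either direction.

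Among immediate early genes, transcription factors that respond within minutes to a stimulus, 4 of 23 were higher in members of all 3 libraries, namely *Egr3*, *Nr4a1*, *Nr4a2* and *Nr4a3*. *Nr4a1* was at 281, 315 and 395 CPM against 94.3, 173 and 200 CPM. Of 19 acute phase and inflammatory genes 2 were higher, *Ptgs2* and *Tnfaip6*. Of 23 genes of TGF-beta and BMP signalling, *Mstn* was higher and *Bmpr1b* lower. *Mstn* (myostatin, known as an inhibitor of muscle growth) was at 295, 459 and 118 CPM in members, 8.43, 231 and 33.9 CPM in other tenocytes and 0.255, 4.14 and 0.189 CPM in epitenon cells. Single genes of other lists also passed the limit in all 3 libraries. *Piezo2*, a mechanically gated ion channel, was at 27.6, 22.3 and 26.9 CPM in members and at 11.3, 10.2 and 13 CPM in other tenocytes. *Cdkn1c*, which inhibits cell cycle kinases, was at 142, 183 and 139 CPM against 71, 102 and 85.1 CPM. *Sema3a*, a repellent of growing axons, was lower in members, at 32.8, 7.69 and 9.96 CPM against 54.3, 32.2 and 43.6 CPM. No ribosomal protein gene of 47, heat shock gene of 14 or endoplasmic reticulum stress gene of 16 passed the limit in all 3 libraries.

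Many of the genes that set members apart also distinguish epitenon cells from tenocytes. Of the 112 higher genes, 58 (51.8%) were also at least 1.5-fold higher in epitenon cells than in other tenocytes in all 3 libraries, where this held for 8.83% of all 4675 genes. Of the 44 lower genes, 32 (72.7%) were also lower in epitenon cells, beside 5.58% of all genes. The comparisons share the other tenocytes as reference, which by itself can raise both shares, and how much it did was not tested. Another 7 of the 112 genes (6.25%) were at least 1.5-fold lower in epitenon cells than in other tenocytes in all 3 libraries, namely *Mstn*, *Mgp*, *Piezo2*, *Edil3*, *Igsf10*, *Emb* and *Ccn4*, and 1 of the 44 lower genes, *Pcolce2*, was higher. *Mgp* was at 278, 247 and 353 CPM in epitenon cells. Of the 15 named genes highest in members, *Tnfaip6*, *Ptgs2*, *Cygb*, *Enpp2* and *C1s1* were higher still in epitenon cells of each library. *Tac1*, *Mgp*, *Cxcl14*, *Tnc*, *Fbln7* and *Mmp2* were lower there than in members, and *Ptx3*, *Fgl2*, *Itih5* and *Slc20a1* differed by library. *Hmcn2*, *Nid1* and *Col14a1* were also higher in epitenon cells than in members of each library. At least 1 UMI of the rule's epitenon genes was found in 62.7%, 54.2% and 72.1% of members and in 29.1%, 32.7% and 36.1% of other tenocytes. When only tenocytes without such a UMI were used, members were 0.872%, 7.39% and 2.95% of tenocytes, and 59 of the 112 genes were among the 83 then higher.

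High doublet scores were more frequent among members, mainly in 21 M B6. The median score of Scrublet, which compares cells with simulated pairs, was 0.0617, 0.0321 and 0.0877 in members and 0.0466, 0.0365 and 0.0261 in other tenocytes, so in 6 M DTR it was lower in members. The scores were within the top 6% of the library in 14.5%, 7.01% and 42.6% of members and in 5.77%, 5.68% and 5.71% of other tenocytes. Scrublet called 0 members as doublets, but it called only 0.0239%, 0.0915% and 0.0208% of kept cells, so its calls were not relied on. Without the cells in the top 6%, the member share in 21 M B6 was 4.07%, and 95 of the 112 genes were among the 117 then higher. The part of doublets, epitenon transcripts and depth in the values of members was not tested further.

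Of the lists for other cell types, that of epitenon and interstitial fibroblasts was abundant in every fibroblast class. It summed to 11216, 11329 and 9229 CPM in members, 14084, 12237 and 11606 CPM in other tenocytes and 14071, 18190 and 12607 CPM in epitenon cells, with *Prg4* (lubricin) the most abundant gene in members. Of its 11 genes measured in all libraries, *Mfap5* and *Dpt* were higher in members and *Clec3b* lower. Although its sum was lower in members than in other tenocytes, the list's median log2 ratio was 0.54, -0.04 and 0.57. Within single libraries, 6 of 13, 3 of 11 and 7 of 14 genes were at least 1.5-fold higher in members and 1, 3 and 3 lower. Of all genes, 613 of 5655, 308 of 5577 and 603 of 5136 were higher and 242, 151 and 294 lower. Macrophage, endothelial and T and NK cell genes were low. Macrophage genes summed to 33.5, 65.9 and 52.8 CPM in members and to 37.7, 63.2 and 52.3 CPM in other tenocytes, with *Lyz2* the most abundant (10.4, 26.9 and 12.9 CPM). Of the 11 genes, 8, 11 and 10 were detected in members, and *C1qb* was at 0 in 6 M WT. Endothelial genes summed to 4.47, 8.46 and 11 CPM, led by *Fabp4*, with 2, 6 and 5 of 8 detected, T and NK cell genes to 1.49, 1.28 and 0.996 CPM, with 2, 1 and 1 of 7 detected, and skeletal muscle genes to 22.4, 50.7 and 107 CPM against 24.4, 63 and 89.8 CPM in other tenocytes. Mural cell genes summed to 223, 276 and 178 CPM in members, led by *Pdgfrb*, and to 268, 301 and 232 CPM in other tenocytes.

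Schwann cell genes had higher sums in members than in other tenocytes of both younger libraries. In 6 M WT *Mbp* and *S100b* were not detected in a larger share of members, while several rarer genes were. The 10 such genes reported here summed to 136, 119 and 29.9 CPM in members and to 71, 76.1 and 58.9 CPM in other tenocytes, and 8, 9 and 7 of them were detected in members. *Mbp* was the most abundant of them in members of 6 M WT (48.5 CPM) and *S100b* in those of the other libraries (103 and 17.9 CPM, against 54.4 and 40.9 CPM in other tenocytes). *Mbp* was detected in 10.8%, 7.38% and 3.28% of members against 22.7%, 16.2% and 11.6% of other tenocytes, and *S100b* in 26.5%, 37.6% and 11.5% against 27.9%, 30.5% and 24.8%, so a few cells gave the higher sum of 6 M WT. *Sox10*, the transcription factor of the Schwann cell lineage, was detected in 2, 1 and 0 members, and *Gfra3* in none. For *Sox10* these were 2.41%, 0.369% and 0% of members, against 0.221%, 0.13% and 0.114% of other tenocytes. *Erbb3* was detected in 4.82%, 1.11% and 4.92% of members against 0.442%, 0.173% and 1.48% of other tenocytes. In 6 M WT *Ngfr*, *Kcna1*, *Cdh19* and *L1cam* were also detected in larger shares of members, and *Foxd3* in no member. Without tenocytes that held a UMI of defining Schwann cell genes, members were 1.59%, 10.3% and 6.17% of tenocytes. Haemoglobin genes summed to 38, 260 and 33.9 CPM in members and to 1049, 4049 and 1146 CPM in other tenocytes. Here the median cell did not differ, at 0, 3 and 0 UMIs in both classes, and 5% of the other tenocytes held 97.5%, 95.1% and 98% of their haemoglobin UMIs. The 4 haemoglobin genes are among the 44 lower genes, so they describe a few cells outside the members. Median mitochondrial counts were 2.74%, 2.8% and 4.89% in members and 2.77%, 2.87% and 5.54% in other tenocytes. Between libraries, 15, 14 and 13 barcodes of kept cells were shared, and none was a member in both libraries.

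Members led by different markers carried different genes, which describes the makeup of the population since the grouping uses the rule's own UMIs. *Mstn* was at 512, 1019 and 488 CPM in members led by *Igfbp3* and at 0, 387 and 36 CPM in those led by *Smoc2*. *Tac1* was at 664, 189 and 1294 CPM in members led by *Igfbp3* and at 116, 192 and 231 CPM in those led by *Smoc2*. Both genes were thus higher in members led by *Igfbp3* except in 6 M DTR, where this held for *Mstn* alone. *Tnfaip6* was highest in members led by *Igfbp3* in 6 M WT (1701 CPM) and in those led by *Scn7a* in the others (1111 and 4912 CPM, from 19 and 10 cells, of which 1 held 533 of the 985 UMIs in 21 M B6). *Acan*, aggrecan of cartilage matrix, was at 72.5, 154 and 0 CPM in members led by *Smoc2* and at 6.54, 11.5 and 0 CPM in those led by *Igfbp3*.

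Members of 6 M DTR were compared with those of 6 M WT. Of 5879 genes with at least 20 CPM in members of either library, 634 (10.8%) were at least 1.5-fold higher in 6 M DTR and 772 (13.1%) at least 1.5-fold lower. The median log2 ratio was 0.00. In other tenocytes 299 of 5490 genes were higher and 310 lower. For several named genes 1 cell held most of the gene's UMIs.

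*Spp1*, which encodes osteopontin, a mineral-binding matrix protein, was the most abundant of the genes named for being higher in 6 M DTR members. It was at 868 CPM in 6 M WT members, 7706 CPM in 6 M DTR members and 124 CPM in 21 M B6 members. In other tenocytes *Spp1* was at 3594, 5210 and 836 CPM. The ratio of 6 M DTR to 6 M WT was 8.88 (8.38 to 9.42) in members and 1.45 in other tenocytes. Within a library, members were below other tenocytes in 6 M WT (0.241) and 21 M B6 (0.148) and above them in 6 M DTR (1.48). Among members thinned to 5000 UMIs, *Spp1* was detected in 30.9%, 63.2% and 8.33%, against 29.7%, 47.3% and 9.42% of macrophages. Macrophages can express *Spp1* themselves, so free RNA was not measured for this gene.

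Several genes of mineral and cartilage matrix were higher in 6 M DTR members too. *Ibsp* (bone sialoprotein) was at 5.96 CPM in members of 6 M WT and 106 CPM in those of 6 M DTR, but came from 10 of 271 members of 6 M DTR, 1 of which held 46.3%. *Acan* was at 25.3 and 109 CPM, a ratio of 4.29 (3.02 to 6.27) against 2.32 in other tenocytes. *Tnfrsf11b* (osteoprotegerin, an inhibitor of osteoclast formation) was at 11.9 and 81.2 CPM, a ratio of 6.81 (4.13 to 12.1) against 0.815 in other tenocytes. *Cd200*, a surface protein, was at 32.8 and 136 CPM, a ratio of 4.16 against 0.977. Of 7 measured fibrocartilage genes, 5 were higher and 1 lower in 6 M DTR members (10.8% and 13.1% of all genes), with a median log2 ratio of 0.88 in members and 0.22 in other tenocytes.

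Other named genes were higher in other tenocytes of 6 M DTR as well. *Edil3*, an integrin ligand, was at 25.3 and 185 CPM in members, a ratio of 7.31 (5.18 to 10.6), while in other tenocytes the ratio was 45.3. *Cthrc1*, a collagen-related secreted protein, had ratios of 10.2 and 14 and *Cemip*, which degrades hyaluronan, 7.77 and 6.16. *Id1*, a target of BMP signalling, was at 54.4 and 339 CPM in members, a ratio of 6.22 against 2.74. *Ecrg4*, a secreted peptide precursor, had ratios of 5.95 and 1.45, and 1 member of 6 M DTR held 34.1% of its UMIs.

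The genes lowest in 6 M DTR members relative to 6 M WT members included serum amyloid and interferon-response genes. *Saa1*, an acute phase protein, was at 869 and 4.87 CPM, from 30 of 83 and 6 of 271 members, a ratio of 0.0056 (0.00336 to 0.00879) against 0.287 in other tenocytes. *Saa3* was at 1775 and 6.15 CPM, but 1 member of 6 M WT held 63.1% of the UMIs and without it the level was 665 CPM. *Saa2* came from 4 and 2 members. *Gbp6*, an interferon-induced GTPase, was at 192 and 8.46 CPM, a ratio of 0.0441 (0.0297 to 0.0636) against 0.213. *Ifi205* was at 485 and 33.8 CPM, a ratio of 0.0698 against 0.595, but among male cells the ratio turned to 2.36.

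For other genes named in this direction, few members decided the value. *Iigp1*, *Ccl11* and *Eln* came from 6, 8 and 12 members of 6 M WT, of which 1 held 40.4%, 48% and 83.4%. *Mmp12* came from 1 member of 6 M WT. Without its highest member, *Eln* (elastin) was at 22 CPM in 6 M WT, beside 5.64 CPM in all members of 6 M DTR.

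**Figure D4:**
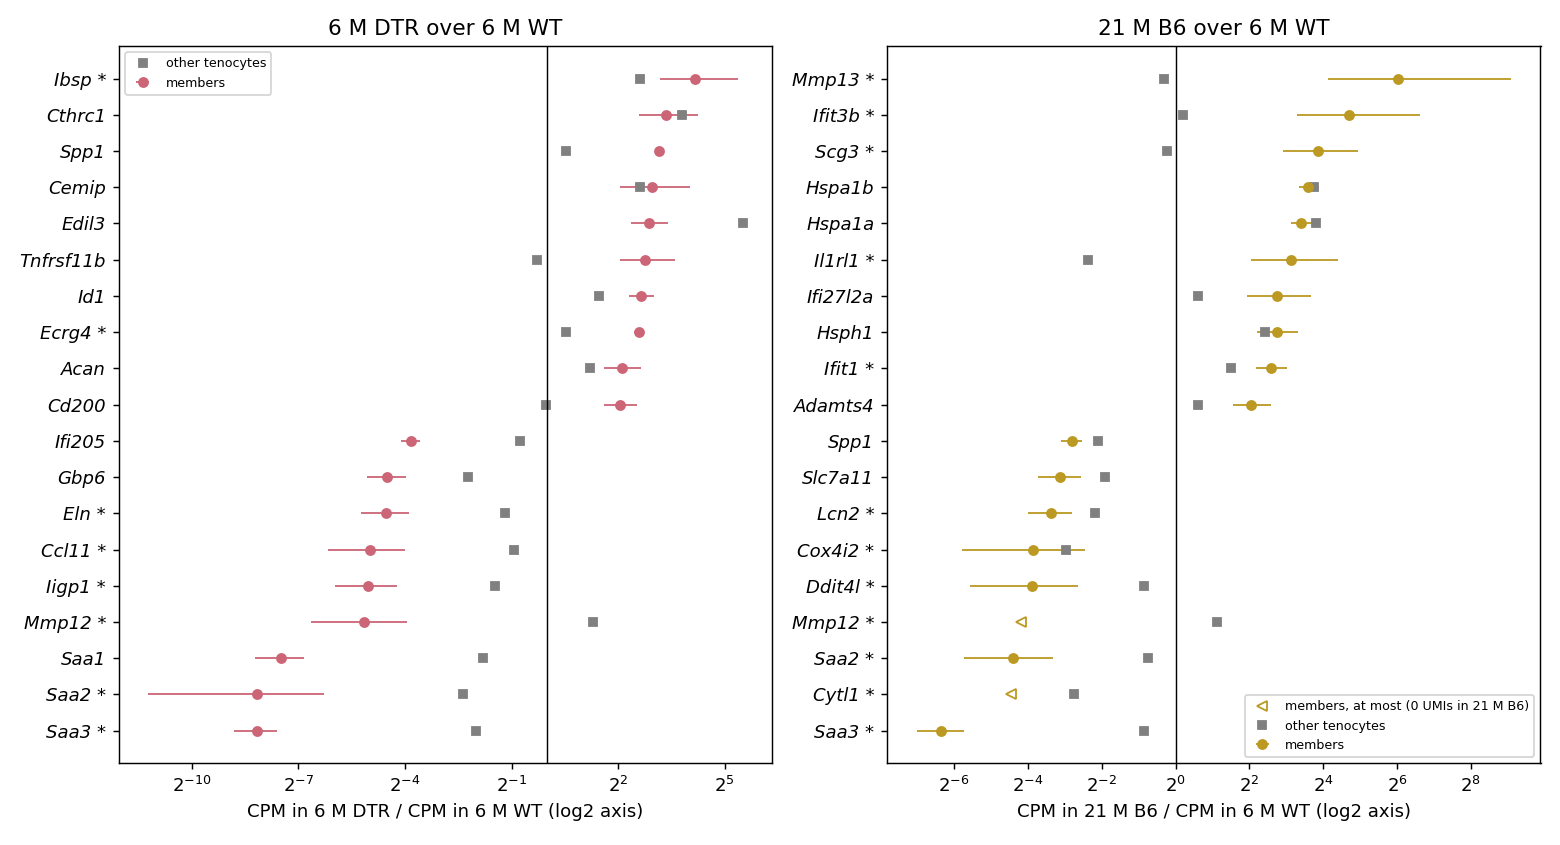
Ratio of CPM in 6 M DTR (left) and 21 M B6 (right) to 6 M WT for the genes with the largest and smallest ratios in members (x axis, log2 scale). Coloured points are members with exact 95% intervals for counting error only, open triangles upper limits where the other library had 0 UMIs, and grey squares other tenocytes. An asterisk marks genes where, in the library with more UMIs, 1 member held at least 30% of them (8 genes on the left and 12 on the right).

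Members of 21 M B6 were compared with the same 6 M WT members. Of 5644 genes, 482 (8.54%) were at least 1.5-fold higher in 21 M B6 and 1318 (23.4%) at least 1.5-fold lower, around a median log2 ratio of -0.23 (-0.24 in other tenocytes). Scaling by TMM factors put the median at 0.02 and the split at 844 higher and 661 lower. Single ratios here are thus to be read relative to the median.

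Heat shock genes were higher in 21 M B6, in members and other tenocytes alike. *Hspa1b*, an inducible HSP70, was at 94.7 CPM in 6 M WT members, 84.8 CPM in 6 M DTR members and 1148 CPM in 21 M B6 members, a ratio of 12.1 (10.1 to 14.7) to 6 M WT against 13.5 in other tenocytes. *Hspa1a* had ratios of 10.6 and 13.9 and *Hsph1* 6.72 and 5.36. Of 15 heat shock genes 11 were higher in 21 M B6 members and none lower (8.54% and 23.4% of all genes), with a median log2 ratio of 1.25 against 1.11 in other tenocytes. Of 24 immediate early genes, 15 were higher and none lower (0.87 against 0.81).

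Of 19 interferon-response genes, 11 were higher and 1 was lower in 21 M B6 members, where 8.54% and 23.4% of all genes were (median log2 ratio 0.91 in members and 0.78 in other tenocytes). Of those named, *Ifit1* was at 47 and 283 CPM, yet 1 member held 57.7% of the 21 M B6 UMIs and 4 members gave those of 6 M WT. The ratio for *Ifit1* turned to 0.189 with at most 2 epitenon UMIs, 0.24 with none and 0.413 in thinned cells. *Ifi27l2a* was at 11.2 and 75.7 CPM, from 6 and 23 members. *Adamts4*, an aggrecanase, was at 32.1 and 133 CPM, a ratio of 4.16 (2.93 to 6.02) against 1.53 in other tenocytes, but among male cells the ratio turned to 0.803. *Scg3* was at 7.45 and 108 CPM, from 8 and 12 members, of which 1 held 37% in 21 M B6. *Mmp13*, *Ifit3b* and *Il1rl1* came from 1, 3 and 2 members of 21 M B6.

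Among genes lower in 21 M B6 members, *Slc7a11* (a cystine transporter) was at 243 and 27.9 CPM, a ratio of 0.115 (0.0751 to 0.169) against 0.267 in other tenocytes. *Spp1* had ratios of 0.142 and 0.233. *Ddit4l* was at 74.5 and 4.98 CPM, where 1 member of 6 M WT held 39% and the level without it was 46.1 CPM. *Lcn2*, an iron-scavenging acute phase protein, was at 268 and 25.9 CPM, where 1 member of 6 M WT held 63.9% and the level without it was 98.5 CPM. *Saa3* and *Saa2* had ratios of 0.0123 and 0.0475, but 1 member of 6 M WT held 63.1% and 80.2% of the UMIs, and for *Saa2* the ratio turned to 3.28 when *Igfbp3* was left out of the markers, and *Saa1* was at 380 CPM in 21 M B6 members against 869 CPM in 6 M WT members. For *Cytl1*, *Cox4i2* and *Mmp12*, 1 member of 6 M WT held 98.9%, 62.8% and 100% of the 6 M WT UMIs. Of 9 fibrillar collagen genes 6 were lower and none higher (23.4% and 8.54% of all genes), with a median log2 ratio of -1.07 in members and -0.95 in other tenocytes.

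Interferon-response genes in 6 M DTR members were lower than in 6 M WT members for 13 of 14 genes and higher for 1 (13.1% and 10.8% of all genes), with a median log2 ratio of -2.85 against -0.92 in other tenocytes, and 15 of 21 acute phase genes were lower and none higher (-1.38 against -0.62). Sums and typical cells differed in this. Summed over the interferon list, members were at 1286, 369 and 1952 CPM and other tenocytes at 938, 547 and 1388 CPM, whereas the median member was at 410, 250 and 862 CPM and the median other tenocyte at 425, 308 and 788 CPM. In the median cell the 6 M DTR level was thus lower than that of 6 M WT in both classes.

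The marker makeup of the members differed between libraries as well. Members led by *Igfbp3* were at 2057, 761 and 3206 CPM of the interferon list and those led by *Smoc2* at 427, 303 and 1069 CPM, and *Igfbp3* led in 47% of members in 6 M WT against 4.8% in 6 M DTR. Those led by *Scn7a* were at 1165, 756 and 1342 CPM, from 4, 19 and 10 cells, and those led by *Hmcn1* at 209, 295 and 838 CPM. The 6 M DTR level was thus below that of 6 M WT in members led by *Igfbp3*, *Smoc2* or *Scn7a*. It was above that of 6 M WT in members led by *Hmcn1*. These groups use the rule's own UMIs and are a description. How much of each difference between libraries goes with the makeup was not tested.

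**Figure D5:**
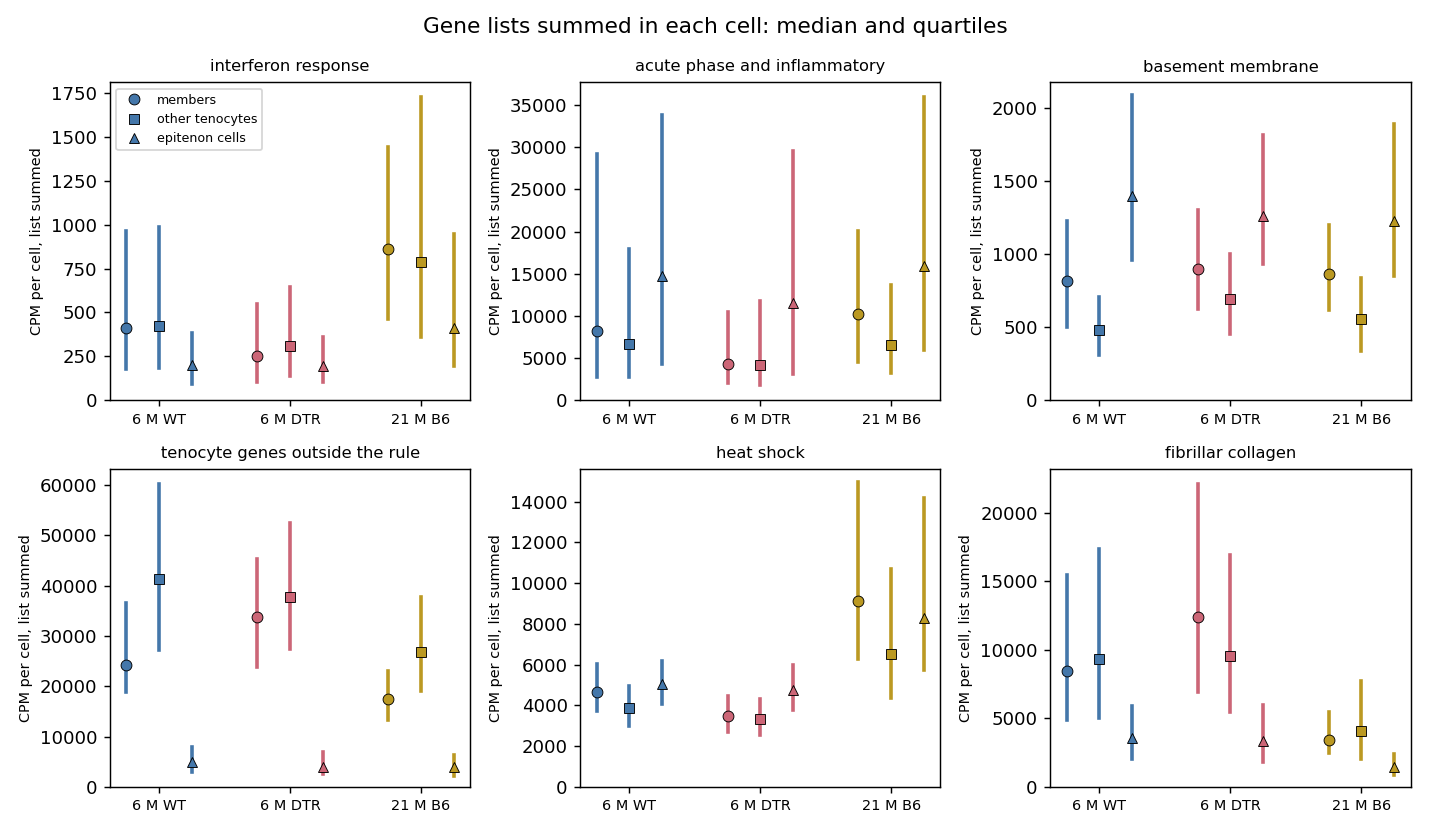
Gene lists summed in each cell (y axis, CPM per cell) in members (circles), other tenocytes (squares) and epitenon cells (triangles) of each library. Symbols are medians over cells and bars reach from the lower to the upper quartile. Basement membrane genes are higher in members than in other tenocytes in each library, and interferon genes are similar in both within 6 M WT (410 and 425 CPM).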

How the data were processed

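FDL tendon cells were profiled by droplet single-cell RNA sequencing in 3 libraries. The authors deposited raw UMI counts for each gene in each barcode, not normalized; the file headers name Cell Ranger 6.0.1, and GEO's processing notes name 2.1.1. The genome build is not given in the sources used here. The members and the gene lists were chosen with earlier results of these data known.

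UMIs were summed over the cells of a class in each library and divided by their total to give CPM. A gene was called at 1.5-fold. Genes with at least 20 CPM in one of the classes compared were tested for the fold, and genes of the rule were left out. With 1 library per group no p-value was computed. Shares have exact Clopper-Pearson intervals and ratios exact intervals conditional on both counts, at 95%; a gene with 0 UMIs in a class is given against a floor of 3 counts over that class. Named genes are the 15 with the largest lowest ratio and the 10 with the smallest highest ratio of members to other tenocytes over the libraries, among genes with at least 50 CPM in members of each, the 10 largest and 10 smallest ratios of each comparison with 6 M WT among genes with at least 50 CPM in either, and members of the lists. Some genes that met this rule are not reported here. Macrophages had at least 10 UMIs of C1q genes. Epitenon, Schwann and endothelial cells were chosen by their marker genes.

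Cells were thinned without replacement to 5000 UMIs, leaving out shallower ones (2 members and 119 other tenocytes of 6 M WT). Neighbours used 2000 variable genes and 20 principal components. Cells were called female by *Xist* and male by Y-linked genes. Analyses used scanpy 1.11.5 (with Scrublet), scikit-learn 1.9.0, pandas 2.3.3, scipy 1.17.1 and numpy 2.4.6 in Python 3.11.15, matplotlib 3.10.9 for plots, and edgeR 4.0.16 in R 4.3.3 for TMM factors only. Alternatives changed the cell filter, the rule, depth, sex, scaling and the CPM minimum.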

Additional observations from a re-analysis of the deposited data

Results flagged for a closer look

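Some ratios of members to other tenocytes lay beyond 1.5-fold in opposite directions in different libraries. These differences between libraries were not tested, since each group had 1 library. *Tnfrsf11b* was at 1.55 in 6 M DTR, 0.185 in 6 M WT and 0.0871 in 21 M B6. In 6 M DTR, however, 1 member held 21.1% of the *Tnfrsf11b* UMIs. Without it the level was 64.8 instead of 81.2 CPM, which puts the 6 M DTR ratio below 1.5-fold. *Cd200* was at 2.72 in 6 M DTR and 0.639 in 6 M WT, and *Ecrg4* at 3.47 in 6 M DTR and 0.6 in 21 M B6. For *Saa3* the ratios were 2.73 (6 M WT), 0.0377 (6 M DTR, from 10 members) and 0.0615 (21 M B6), but 1 member held 63.1% of the 6 M WT UMIs, and without it the level was 665 CPM against 651 CPM in other tenocytes. *Ifi205* was at 4.26 in 6 M WT, 2.22 in 21 M B6 and 0.5 in 6 M DTR, and *Ifit1* at 2.88 in 6 M WT, 6.17 in 21 M B6 and 0.281 in 6 M DTR. For *Ifit1*, 1 of 4 members held 69.8% of the 6 M WT UMIs, and without it the level was 14.5 CPM against 16.3 CPM in other tenocytes. *Mmp12* (10.5 in 6 M WT and 0.121 in 6 M DTR) rested on 1 member of 6 M WT.

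Barcodes outside the cell filter that met both the tenocyte and the member rule numbered 25 (6 M WT), 42 (for 6 M DTR) and 6 (for 21 M B6), of which 24, 34 and 3 had more than 5000 genes. These were 6.72%, 11.2% and 2.29% of the barcodes outside the filter that met the tenocyte rule.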

How the results depend on the processing

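No paired analysis was possible because each group had 1 library and no test was made. The alternatives that left out high doublet scores, Schwann cell genes, cells with any epitenon UMI or the highest member were chosen after seeing the data. The member share was 1.11% in 6 M WT and 4.15% in 21 M B6 with at most 2 epitenon UMIs, and 0.872%, 7.39% and 2.95% with none. Marker sums of at least 2 gave 2.37%, 14.8% and 8.86%, and of at least 5 gave 0.87%, 5.74% and 3.74%. Leaving out *Igfbp3* gave 0.791% in 6 M WT, leaving out *Hmcn1* gave 7.56% in 6 M DTR, and leaving out *Smoc2* gave 1.05%, 4.03% and 3.95%. Thinning gave 0.709%, 3.96% and 2.23%, male cells gave 2.23%, 13.6% and 4.57%, and female cells gave 7.55% in 6 M DTR. In 21 M B6 a mitochondrial limit of 5% gave 8.45% and leaving out the top 6% of doublet scores 4.07%.

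Counts of genes past 1.5-fold moved with the CPM minimum. At 5 CPM, 248 genes were higher and 86 lower in members than in other tenocytes, 1596 and 1535 for 6 M DTR over 6 M WT, and 1079 and 2815 for 21 M B6 over 6 M WT. At 50 CPM the counts were 45 and 27, 262 and 379, and 266 and 564. Leaving out *Smoc2* gave 67 lower genes in members, and leaving out the highest member of each gene gave 69. For 6 M DTR over 6 M WT, a wider limit on genes per cell gave 414 higher and at most 2 epitenon UMIs 984 higher. Thinning gave 1120 and 1260 for 6 M DTR and 1011 and 2011 for 21 M B6, no epitenon UMI 1320 and 1179, and 996 and 2040, male cells 1087 and 2055 for 21 M B6, and TMM 844 and 661.

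At 2000 UMIs per cell, *Igfbp3* was detected in 25.3% and 2.58% of 6 M WT and 6 M DTR members, *Smoc2* in 16.9%, 38.4% and 23%, *Hmcn1* in 20.7% of 6 M DTR and 6.56% of 21 M B6 members, and *Scn7a* in 9.84% of 21 M B6 members. Of 2645 recomputed ratios of named genes, 1725 stayed within the counting interval of the value given, 912 moved out of it without turning, and 8 turned direction: *Ifit1* in 21 M B6 over 6 M WT (0.189 with at most 2 epitenon UMIs, 0.413 thinned, 0.24 with none), *Il1rl1* (0.806 at a marker sum of 2), *Saa2* (3.28 without *Igfbp3*) and *Adamts4* (0.803 in male cells) in the same comparison, *Ptx3* in members of 6 M WT (0.201 in male cells) and *Ifi205* in 6 M DTR over 6 M WT (2.36 in male cells). The causes were not tested.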
